A study of Mus musculus with 22 samples.

Results

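The mature miRNA names numbered miR-7210 to miR-7243 were examined in mouse round spermatids (RS), germ cells that have completed meiosis and are haploid. Members were taken by name alone, as every row of the count table whose number lies in that range, with either arm of the hairpin. The rule found 64 of the 1966 mature names, 32 hairpins with a 5p and a 3p name each. The range itself was selected on measured values of these data, namely results of the genotype comparisons, with no record of which value decided it. The levels and the KO and KI values below therefore describe the members and carry no test of them. Just outside the range, the next numbers in the table are miR-7119 and miR-7578, both with 0 counts, and just inside it miR-7210 had 207295 counts over all libraries and miR-7243 had 0.

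RS were isolated from testes of mice 75 to 85 days old, and 22 small RNA libraries fall into 4 groups in 2 experimental batches. Batch 1 held WT (n = 5) and GRTH Knock-out (KO, n = 5), and batch 2 held other WT samples (n = 6) and GRTH Knock-in (KI, n = 6). GRTH/DDX25 is a testis-specific RNA helicase. KO mice lack it, and KI mice carry a human GRTH gene with an amino acid change that leaves no phosphorylated GRTH. Both mutants are described in the study as sterile, with RS that fail to elongate, so that a mutant testis lacks the later spermatids that a WT testis holds. The sources do not say that the libraries of a group are separate animals, and p-values measure the spread between these samples only. The transcript of GRTH is not a miRNA and was not analysed here.

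A miRNA gene is transcribed as a precursor that folds into a hairpin. The enzymes Drosha and Dicer cut out a short duplex of the 5p and 3p arms, and an Argonaute protein usually keeps one arm as the guide and discards the other. The guide recognises target mRNAs mainly through its seed, bases 2 to 8. Male germ cells also hold piRNAs, a second class of small RNAs that are bound by PIWI proteins, are cut from long single-stranded transcripts without a hairpin, are somewhat longer than miRNAs and mostly begin with U. The table gives counts on miRNA coordinates and no read lengths, so which class of small RNA the reads belonged to was not tested.

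The sequences below, from RefSeq (GRCm38.p6), are a selection of members with many counts or with larger KO values, together with miR-7223-3p, the single member with a KO value below 0. Seeds are in capitals. No seed was shared between any of the 52 members whose sequence was found.
miR-7217-5p (chr17:27355738-27355762, plus strand): aACUUGUAucuugugagacagaagg
miR-7217-3p (chr17:27355778-27355799, plus strand): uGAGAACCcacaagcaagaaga
miR-7216-5p (chr17:27328385-27328408, plus strand): uGGAGAGCuggcagaggacccaga
miR-7216-3p (chr17:27328440-27328460, plus strand): uGGAAUUUggucuuuuccggc
miR-7218-5p (chr17:27358097-27358117, plus strand): uGCAGGGUuuaguguagaggg
miR-7214-3p (chr17:27317035-27317058, minus strand): cUCAGUCCugaccccuugagcgca
miR-7221-5p (chr2:92592206-92592226, plus strand): cGUCUCUUggucacagguggg
miR-7221-3p (chr2:92592257-92592277, plus strand): uGACUGUGggcuggggacugg
miR-7222-5p (chr2:92594602-92594628, plus strand): gGCACUUGccaggcucugagcuggacu
miR-7229-5p (chr5:113324525-113324545, minus strand): uAGUAGACaucccuggauagc
miR-7232-3p (chr6:81895590-81895611, minus strand): uGGUUGAAuucgacuuuggggc
miR-7223-3p (chr11:107996900-107996916, plus strand): gUCUCGAAcaagcuagg

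Outside the range, 6 members shared a seed with 1 other name of the table each. Among the names with counts, the seed AGUAGAC of miR-7229-5p is that of miR-411-5p, and miR-7221-3p shares its seed with miR-679-5p, miR-7223-5p with miR-3101-3p and miR-7242-3p with miR-5623-5p. Among names with a sequence, no other name came within 2 mismatches of any of the 52 members with one. Members without a sequence, among them the abundant miR-7214-5p, miR-7233-5p and miR-7241-3p, could not be compared in this way. Each member had a single locus.

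The range was divided sharply by level. The counts of the 32 hairpins summed over the 22 libraries left a wide gap, with 16 hairpins between 1996 and 409427 counts and 16 between 0 and 36. The line between them was drawn after the counts were seen. The 32 names of the low hairpins held 76 counts in all, of 1840752 on the members and 39010121 in the table. Of these names 20 were at 0 in every library, 11 had 1 to 9 counts, and no library held more than 5 on one of them. miR-7226-3p was the single low name with 10 counts or more, at 5 over WT and 4 over KO in batch 1 and 12 over WT and 15 over KI in batch 2. On the other side of the gap, miR-7215-3p passed no filter either, with 4, 10, 23 and 17 counts in the same order of groups. CPM are counts divided by the scaled library total, to a fixed total, except that the floors given next use the unscaled total. A count of 3, the smallest amount the depth was taken to show, is 5.36 CPM in the shallowest library and 0.926 in the deepest. The absence of a low name was therefore not detectable below these levels. Intervals and floors given here cover counting error only.

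The hairpins with and without counts lie in different surroundings. By GENCODE vM21 on GRCm38, 13 of the 16 low hairpins lie on the same strand within a protein-coding gene, and 0 of the 16 high hairpins do. Examples of the low kind are miR-7213 in an intron of Pdgfb, miR-7227 in an intron of Arid1a, miR-7243 in an intron of Ephb1 and miR-7231 over an exon of Foxj2. Of the high hairpins, 8 overlap no other gene, 5 lie on the same strand within a non-coding gene only, and 3 lie opposite to a gene, which for miR-7223 is an intron of Prkca and for miR-7215 an intron of Stox1. The corresponding numbers for the low hairpins are 1, 1 and 1.

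**Figure D1:**
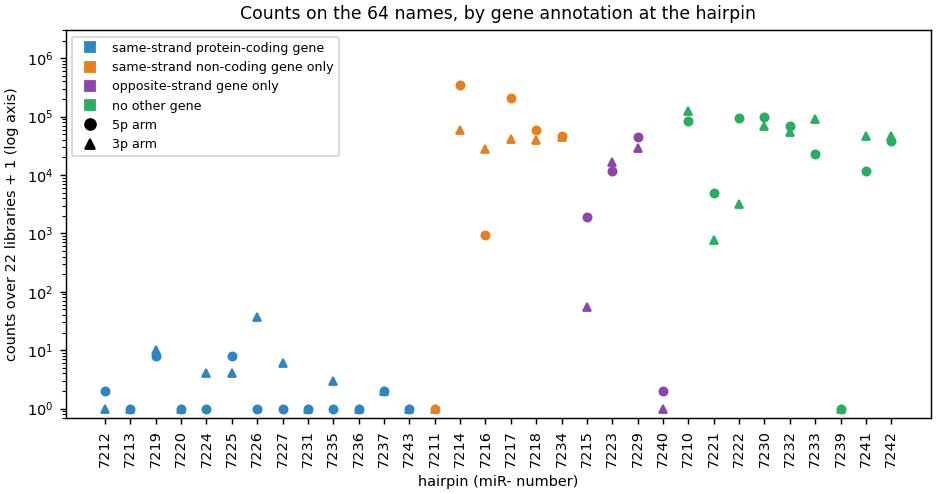
Counts over the 22 libraries plus 1, on a log axis, for the 5p arm (circles) and 3p arm (triangles) of the 32 hairpins, coloured and ordered by the gene annotation at the hairpin. All 13 hairpins within a protein-coding gene on the same strand stay at or under 36 counts, and the 16 hairpins with 1996 counts or more are found in the other 3 classes.

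Several high hairpins are neighbours. On chromosome 17, miR-7214, miR-7216, miR-7217 and miR-7218 lie within 41121 bases and held 42.7% of the counts of the members. miR-7214 is on the minus strand in an intron of Gm49793, a non-coding gene, miR-7216 on the plus strand in an intron of Gm10505, and miR-7217 and miR-7218 are 2359 bases apart in an exon of Gm49794, whose spliced transcript holds the mature sequences of both. Other neighbours are miR-7221 and miR-7222 on chromosome 2, with starts 2396 bases apart, miR-7241 and miR-7242 on chromosome 9, 1782 apart, and miR-7229 and miR-7230 on chromosome 5, 13097 apart. In each of these 3 pairs both hairpins are on one strand. The mature sequences of miR-7234 occur in an exon of the non-coding gene Gm21269.

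At the median, the high hairpins also folded more weakly in a computed structure. RNAfold gave a median minimum free energy of -0.313 kcal/mol per base over 15 high hairpins with a sequence and -0.405 over 13 low ones, against -0.409 over 975 other hairpins. By this measure 14.6% of the other hairpins folded more weakly than the high median and 48.8% more weakly than the low median. The ranges overlapped, from -0.384 to -0.169 per base in the high hairpins and from -0.783 to -0.292 in the low ones. The examples given next include the weakest fold of the high hairpins and the strongest of the low ones, and are not typical of either. The miR-7210 hairpin came to -0.169 per base and the miR-7243 hairpin to -0.783, and the other hairpins printed here came to -0.268 (miR-7230) and -0.691 (miR-7213). The hairpin sequences follow with the mature arms in capitals.
Mir7210, high: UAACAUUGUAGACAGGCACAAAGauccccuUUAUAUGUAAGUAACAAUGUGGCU
Mir7230, high: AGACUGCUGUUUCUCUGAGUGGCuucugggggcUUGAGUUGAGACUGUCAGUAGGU
Mir7213, low: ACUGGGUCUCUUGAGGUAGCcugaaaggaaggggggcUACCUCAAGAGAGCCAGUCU
Mir7243, low: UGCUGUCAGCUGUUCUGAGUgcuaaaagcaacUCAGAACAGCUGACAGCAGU

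Base composition differed less. A first U was found in 18 of 29 high names (62.1%) and in 12 of 23 low names (52.2%), against 40.4% of 1623 other names with a sequence. An A at base 10 was present in 20.7% of high, 26.1% of low and 19.8% of other names. Median GC content was 50% in high and 53.8% in low names, against 52.2%. The stretch between the annotated arms ran from 3 to 35 bases in the high hairpins and from 10 to 19 in the low ones.

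In WT RS the members were abundant. They held 4.65% of all counts in batch 1 (SD 0.35, n = 5) and 4.45% in batch 2 (SD 0.38, n = 6), and 22 and 23 of them stood among the 100 names with the most counts. miR-7214-5p led in every group, with 0.93% ± 0.03 (SD, n = 5) of all counts in WT of batch 1 and 0.83% ± 0.05 (SD, n = 6) in WT of batch 2, ranks 11 and 13 of the table. miR-7217-5p came next at ranks 34 and 24, and these 2 names together made up 28.76% and 30.89% of the members' counts. In WT of batch 1 the levels of the 31 names that passed the filter ran from 22.1 CPM (miR-7221-3p) to 9647 CPM (miR-7214-5p). By contrast, 2 of 719 other names with a number of 4 digits from 5000 upward passed that filter in batch 1, and 303 of 1902 other names of any number did.

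Most high hairpins had counts on both arms. The less abundant arm had a median share of 29.73% of the hairpin's counts over the 16 hairpins in WT of batch 1 and 27.6% in batch 2. Over 184 other hairpins the median was 1.94% in batch 1, and over 218 it was 1.9% in batch 2. A minor arm above 10% was found in 13 of 16 members' hairpins in either batch, against 22.28% and 26.61% of the others. Most even was miR-7210, with 47.9% ± 1.3 (SD, n = 5) of its counts on the 5p arm in WT of batch 1. The 3 hairpins with 1 dominant arm were miR-7216 (5p share 4.08% ± 0.92, SD, n = 5), miR-7222 (97.0% ± 0.37, SD, n = 5) and miR-7215 (97.1% ± 3.6, SD, n = 5). The 5p arm held most counts of 8 of 16 hairpins in batch 1 and of 10 of 16 in batch 2.

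**Figure D2:**
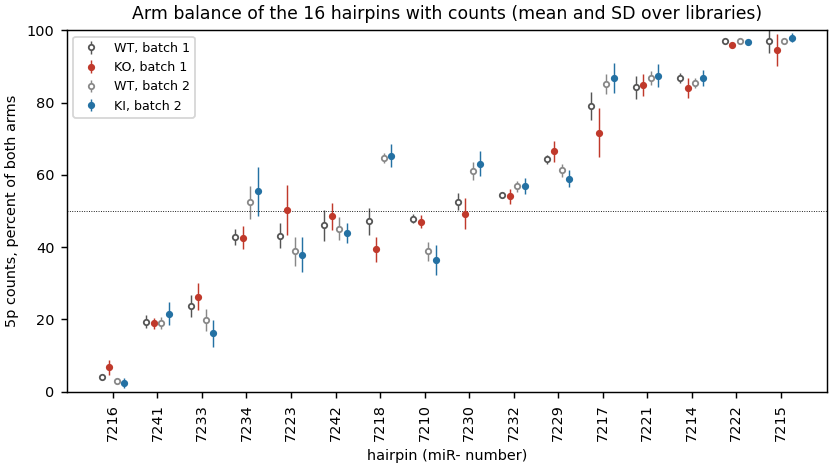
Counts on the 5p arm as percent of both arms for the 16 hairpins with counts, ordered by WT of batch 1. Points are group means and bars SD over libraries (n = 5, 5, 6 and 6). Most hairpins lie well inside the range from 10% to 90%, and miR-7218 moves from 47.1% in WT of batch 1 to 64.7% in WT of batch 2.

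WT levels were compared between the batches, and KO and KI values are each read against WT of their own batch. In edgeR's quasi-likelihood test of WT batch 2 against WT batch 1, 19 of the 31 members passed an adjusted p of 0.1 after Benjamini-Hochberg correction and are referred to as called, 17 higher and 2 lower in batch 2. Of the 383 names tested, 56.7% were called, 26.9% higher and 29.8% lower. The members' share of calls in either direction, 61.3%, was near that of all names. The directions differed, as 17 of the 19 called members were higher in batch 2. The median log2 fold change was 0.23 over the members and -0.01 over all names. The samples did not overlap for 8 members, all higher in batch 2, where 36.6% of all names did not overlap and 17% did so with the higher level in batch 2. The largest rise was that of miR-7215-5p, with a log2 fold change of 0.87 ± 0.15 (SE) and an edgeR adjusted p of 0.000171. It was followed by miR-7217-5p at 0.71 ± 0.09 (adjusted p 6.73e-06 by edgeR) and miR-7218-5p at 0.67 ± 0.11 (adjusted p 7.71e-05 by edgeR). miR-7217-5p was at 3670 ± 369 CPM (SD, n = 5) in batch 1 and at 6004 ± 620 (SD, n = 6) in batch 2 when both were scaled together. miR-7218-3p fell by 0.37 ± 0.12 on the log2 scale (adjusted p 0.0214 by edgeR) and miR-7234-3p fell by 0.27 ± 0.12 (adjusted p 0.0641 by edgeR). The opposite arm of each rose, with 0.26 ± 0.09 for miR-7234-5p (adjusted p 0.0267 by edgeR). The 5p share of WT libraries did not overlap between the batches for 5 of 16 hairpins, where 21.5% of all 200 hairpins with at least 50 counts over both arms did not overlap. It ran from 42.2 to 52.9% in batch 1 and from 62.7 to 66.2% in batch 2 for miR-7218, and from 46.5 to 49.5% and from 36.2 to 41.6% for miR-7210. The other 3 were miR-7229, miR-7230 and miR-7234. With library size as the only scaling, 12 members were called in place of 19, 4 higher and 8 lower, and that scaling moved the median of all names by -0.33 on the log2 scale.

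The comparison of KO with WT in batch 1 asked how these names stand in RS without GRTH. The members' share of all counts was 4.30, 4.91, 4.24, 4.87 and 4.95% in WT replicates 1 to 5 and 5.24, 6.13, 7.82, 6.28 and 5.88% in the KO replicates. KO lay above WT in every library, at a mean of 6.27% ± 0.95 (SD, n = 5), with KO replicate 3 highest. In batch 2 the share overlapped between the groups, from 3.95 to 4.83% in WT and from 3.87 to 5.63% in KI, where the mean was 4.69% ± 0.63 (SD, n = 6).

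**Figure D3:**
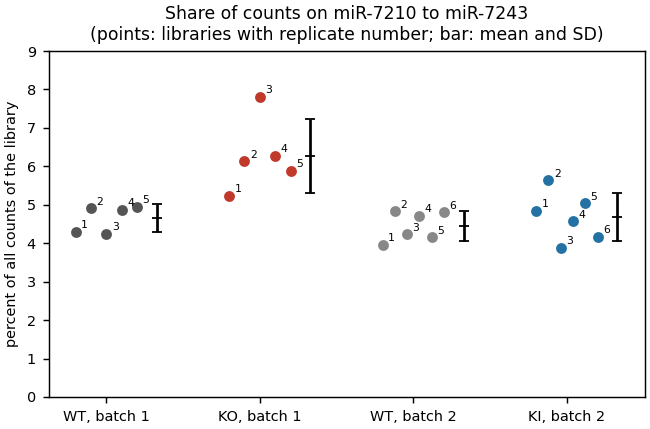
Percent of all counts of a library on the members, by group, with the replicate number beside each point and the mean with SD to the right of each group. The 5 KO libraries lie between 5.24 and 7.82%, above the 5 WT libraries of batch 1 at 4.24 to 4.95%, while WT and KI of batch 2 overlap.

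Of the 31 members tested for KO, 20 were called higher, 0 lower and 11 were not called. Over all 334 names tested, 41.9% were called, 21.3% higher and 20.7% lower. The log2 fold change was positive for 30 of 31 members, with a median of 0.37 and a range from -0.06 to 1.10, and the median over all names was 0.01. KO and WT libraries did not overlap for 8 members, all higher in KO, where 20.1% of all names did not overlap and 8.68% did so with the higher level in KO. These counts come from the contrast that was known when the range was proposed. KO libraries were shallower (702129 ± 127541 counts, SD, n = 5, against 978178 ± 77789 in WT), and with library size as the only scaling the median of all names rose to 0.13 and 25 members were called. Without KO replicate 3, which was the highest KO library for 26 of the 31 members, 17 were called, and 33.7% of all names. Of the 20 calls, 15 were kept whichever library was left out. Without the filter on low counts 6 of the 20 were lost, namely miR-7214-5p, miR-7217-5p, miR-7210-3p, miR-7216-3p, miR-7222-5p and miR-7229-3p.

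**Figure D4:**
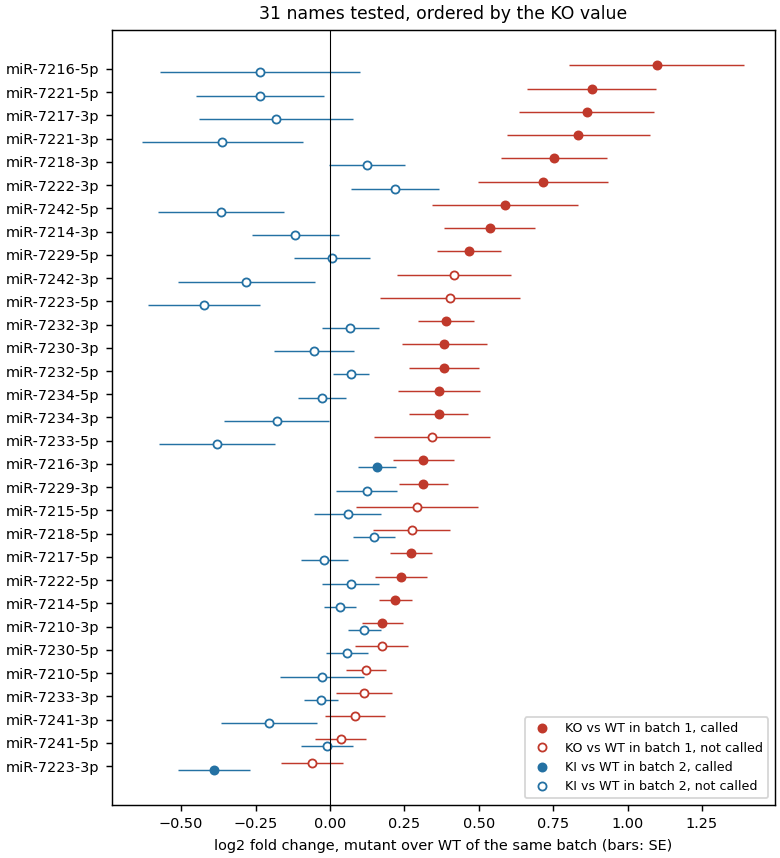
Log2 fold change of KO over WT in batch 1 (red) and of KI over WT in batch 2 (blue) for the 31 members tested, with SE as bars and filled points for calls at an adjusted p under 0.1. KO values reach 1.10 and are called for 20 members, KI values lie between -0.42 and 0.22 and are called for 2, and each KO point lies to the right of the KI point of the same name.

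On chromosome 17 the largest KO values were those of miR-7216-5p, miR-7217-3p, miR-7218-3p and miR-7214-3p. All but miR-7218-3p, which had slightly more counts than its 5p partner in batch 1, are the less abundant arm of their hairpin. miR-7216-5p, the minor arm of its hairpin, was at 22.04, 31.6, 22.7, 38.4 and 25.96 CPM in WT replicates 1 to 5 and at 26.3, 54.0, 92.4, 76.3 and 56.1 CPM in KO. KO replicate 1 lay within the WT range and the other 4 above it, and the log2 fold change of 1.10 (SE 0.29) was the largest among the members. For miR-7217-3p the values were 790, 1230, 908, 1449 and 1424 CPM in WT and 1389, 1804, 3293, 2123 and 1944 in KO, and the log2 fold change was 0.86 (SE 0.23). KO replicate 1 again fell inside the WT range and KO replicate 3 stood highest. miR-7218-3p had 938, 1495, 1225, 1356 and 1539 CPM in WT and 1547, 1856, 2985, 2566 and 2099 in KO, with no overlap and a log2 fold change of 0.75 (SE 0.18). miR-7214-3p was at 1194, 1641, 1277, 1557 and 1732 CPM in WT and at 1527, 1993, 2827, 2194 and 2196 in KO (log2 fold change 0.54, SE 0.15), with KO replicate 1 inside the WT range.

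The opposite arms at that locus had smaller values. miR-7214-5p, the most abundant member, was at 9373, 10263, 9057, 9476 and 10068 CPM in WT and at 11127, 10654, 11423, 11475 and 11506 in KO, without overlap, a log2 fold change of 0.22 (SE 0.06). miR-7217-5p had 4185, 4697, 3859, 4252 and 4587 CPM in WT and 5270, 4880, 5163, 5070 and 5691 in KO, also without overlap, a log2 fold change of 0.27 (SE 0.07). miR-7216-3p was at 660 ± 64.9 CPM in WT and 822 ± 98.6 in KO (SD, n = 5 each), 0.31 (SE 0.10) on the log2 scale, with overlap. miR-7218-5p overlapped as well, at 895 to 1354 CPM in WT and 1215 to 1757 in KO, and its value of 0.27 (SE 0.13) was not called. In KO the 5p share of miR-7217 was 71.6% ± 6.7 (SD, n = 5) against 79.0% ± 3.8 in WT, and that of miR-7218 was 39.4% ± 3.4 against 47.1% ± 3.8, but the arm shares of KO and WT libraries overlapped for all 16 hairpins, as they did for all but 2.11% of 190 hairpins of the table.

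**Figure D5:**
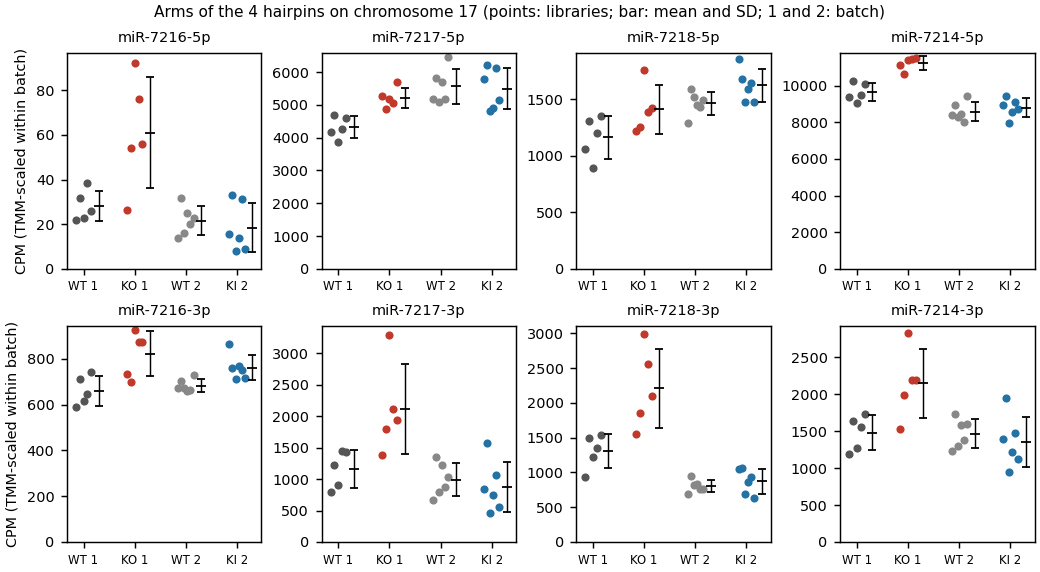
CPM, scaled by TMM within each batch, of the arms of the 4 hairpins on chromosome 17 in each library (points) with mean and SD to the right, for WT and KO of batch 1 and WT and KI of batch 2. Batches are scaled apart and are not compared. KO lies above WT without overlap for miR-7217-5p, miR-7218-3p and miR-7214-5p, and KI overlaps WT in all 8 panels.

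All arms of the pair on chromosome 2 were called. miR-7221-5p was at 71.9, 121, 121, 141.5 and 149.5 CPM in WT and 165, 196, 330, 231 and 195 in KO, with no overlap and a log2 fold change of 0.88 (SE 0.22). Its opposite arm miR-7221-3p, at 17.4 to 31.2 CPM in WT and 25.4 to 58.4 in KO, had a value of 0.83 (SE 0.24) with overlapping libraries. miR-7222-3p, the minor arm, was at 60.5 to 100.4 CPM in WT and 86.9 to 199.8 in KO (0.72, SE 0.22). The major arm miR-7222-5p was at 2408 to 3023 and 2899 to 3694 CPM (0.24, SE 0.09). All 4 names were higher in KO, and KO replicate 3 was the highest library for each of them.

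Among the other called names, miR-7229-5p ran from 1074 to 1320 CPM in WT and from 1386 to 2075 in KO (0.47, SE 0.11) and miR-7229-3p from 610 to 761 and from 790 to 867 (0.31, SE 0.08), both without overlap. miR-7232-3p (1220 to 1644 in WT, 1806 to 2175 in KO, 0.39, SE 0.09) and miR-7234-3p (1436 to 1785 in WT, 1831 to 2502 in KO, 0.37, SE 0.10) completed the 8 members without overlap. Called with overlapping libraries were miR-7242-5p (0.59, SE 0.25), miR-7230-3p (0.38, SE 0.14), miR-7232-5p (0.38, SE 0.12), miR-7234-5p (0.37, SE 0.14) and miR-7210-3p (0.18, SE 0.07). miR-7242-5p had the widest spread of these, at 820 to 1695 CPM in WT and 1181 to 3039 in KO. Its call was lost in 8 of the 10 fits that left out a library, and without KO replicate 3 its value was 0.33. The call of miR-7210-3p was lost in 5 of these fits and that of miR-7234-5p in 4, in both cases without KO replicate 3 among others. miR-7230-3p and miR-7222-5p lost theirs without WT replicate 1 or 3, and miR-7230-3p came to 0.23 without KO replicate 3.

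The names not called for KO were miR-7242-3p (0.42, SE 0.19), miR-7223-5p (0.40, SE 0.24), miR-7233-5p (0.34, SE 0.20), miR-7215-5p (0.29, SE 0.21), miR-7218-5p (given above), miR-7230-5p (0.17, SE 0.09), miR-7210-5p (0.12, SE 0.07), miR-7233-3p (0.12, SE 0.09), miR-7241-3p (0.08, SE 0.10), miR-7241-5p (0.04, SE 0.09) and miR-7223-3p (-0.06, SE 0.10). miR-7241-5p sat at 283 to 341 CPM in WT and 304 to 340 in KO, the value nearest to 0 among the members. miR-7223-3p was the single member with a negative value, at 377 to 477 CPM in WT and 352 to 464 in KO. Its opposite arm miR-7223-5p reached 739 CPM in KO replicate 3, where the other 4 KO libraries lay between 273 and 459.

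KI RS did not show such values. KO libraries were only in batch 1 (559957 to 881323 counts) and KI libraries only in batch 2 (2107461 to 3101145 counts). A difference between KO and KI values therefore cannot be told apart from one of batch or depth. Of 31 members tested for KI, 1 was called higher, 1 lower and 29 were not called. Of all 387 names tested, 38% were called, 18.1% higher and 19.9% lower. The median log2 fold change was -0.03 and the range ran from -0.42 to 0.22. miR-7216-3p was the name called higher, at a lowest, median and highest value of 657, 673 and 731 CPM in WT and 711, 757 and 864 in KI (0.16, SE 0.06), and the groups overlapped. miR-7223-3p was the name called lower, at 434, 487 and 593 CPM in WT and 291, 374 and 484 in KI (-0.39, SE 0.12), again with overlap. The lowest value was that of miR-7223-5p (-0.42, SE 0.19), at 233, 307 and 377 CPM in WT and 154, 219 and 364 in KI, which was not called. For 0 of the 31 members did WT and KI libraries fail to overlap, where 14.5% of all names did not overlap (5.43% with the higher level in KI), and the arm shares overlapped for all 16 hairpins, where 1.32% of 227 hairpins did not.

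At the chromosome 17 locus, miR-7214-5p was at 8007, 8429 and 9415 CPM in WT of batch 2 and at 7940, 8825 and 9444 in KI (0.03, SE 0.05). miR-7217-5p had 5092, 5434 and 6448 CPM in WT and 4798, 5469 and 6208 in KI (-0.02, SE 0.08). Of the arms with the largest KO values, 3 had a KI value below 0 and miR-7218-3p one above it, and none of these was called. miR-7216-5p stood at 13.8, 21.5 and 31.8 CPM in WT and 8.2, 14.6 and 33.2 in KI (-0.24, SE 0.33), and miR-7217-3p at 673, 955 and 1346 in WT and 468, 795 and 1580 in KI (-0.18, SE 0.26). miR-7218-3p (0.12, SE 0.13), miR-7218-5p (0.15, SE 0.07) and miR-7214-3p (-0.12, SE 0.15) were not called.

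The remaining KI values were all not called. They were positive for miR-7222-3p (0.22, SE 0.15), miR-7229-3p (0.12, SE 0.10), miR-7210-3p (0.12, SE 0.06), miR-7232-5p (0.07, SE 0.06), miR-7232-3p (0.07, SE 0.10), miR-7222-5p (0.07, SE 0.10), miR-7215-5p (0.06, SE 0.11), miR-7230-5p (0.06, SE 0.07) and miR-7229-5p (0.01, SE 0.13). They were negative for miR-7233-5p (-0.38, SE 0.20), miR-7242-5p (-0.37, SE 0.21), miR-7221-3p (-0.36, SE 0.27), miR-7242-3p (-0.28, SE 0.23), miR-7221-5p (-0.23, SE 0.21), miR-7241-3p (-0.21, SE 0.16), miR-7234-3p (-0.18, SE 0.18), miR-7230-3p (-0.05, SE 0.13), miR-7233-3p (-0.03, SE 0.06), miR-7234-5p (-0.03, SE 0.08), miR-7210-5p (-0.03, SE 0.14) and miR-7241-5p (-0.01, SE 0.09). Without KI replicate 2, the highest KI library for 25 of 31 members, 8 members were called in place of 2, 1 higher and 7 lower, and 44.6% of all names were called in that fit.

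Side by side, the KO value exceeded the KI value for 31 of 31 members. Over all names, the difference of the effects was positive for 222 of 421. Of the members, 17 were positive in KO and negative in KI, a count with no value over all names beside it. Members vary together within libraries, so these are not counts of independent names. The mutants are in different batches, so mutant and batch cannot be told apart here. Of the 20 members called higher in KO, 1 (miR-7216-3p) was also called higher in KI and 19 were not called. How many of all names were called in both comparisons was not counted, so this count has no background beside it. The difference of the effects, each against WT of its own batch, had a median of 0.33 over the members and of 0.02 over all names, and ran from 0.04 (miR-7241-5p) to 1.33 (miR-7216-5p, SE 0.47). In edgeR's quasi-likelihood test of this difference 0 of 421 names were called, so 0% is the background and 0 of the 31 members were called. DESeq2 also called 0. Unadjusted edgeR p-values under 0.05 were found for 67 of the 421 names and for 18 of the 31 members. The range was chosen on results of the genotype comparisons and members vary together, so this count is not a test of them. Leaving out KI replicate 2 gave 12 called members, all with the larger value in KO, and 26 called names in all (6.19% of 420).

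Members varied together within groups. KO replicate 3 was highest for 26 and KO replicate 1 lowest for 18 of the 31 members, while KO replicate 3 was highest for 16.8% of the 303 other names. In WT of batch 1, replicate 1 was lowest for 21. KI replicate 2 was highest for 25, and for 22.8% of the 356 other names. KI replicate 3 was lowest for 23, and WT replicate 1 of batch 2 was lowest for 21. How often a library was lowest for the other names was not counted. Among the tested members, names richer in GC varied more between replicates. Over the 28 tested members with a sequence, GC content and the coefficient of variation had a Spearman correlation of 0.60 in WT and 0.56 in KO of batch 1, and of 0.54 in WT and 0.59 in KI of batch 2. GC content and the log2 fold change had a Spearman correlation of 0.52 for KO and of -0.25 for KI over the same 28 names. Members share libraries and loci, so these correlations are descriptions across names. The median KO value was 0.31 for the 14 members with a GC content at or under 49% and 0.48 for the 14 above it, and the KI values were -0.01 and -0.18. Level was not separated from GC content. Of the names rich in GC, miR-7221-3p (66.7%) and miR-7216-5p (62.5%) had 104 and 134 counts over WT of batch 1. At such counts counting error adds to the spread, and their KO values were 0.83 and 1.10. Others rich in GC had many counts. Among these, miR-7222-5p (63.0%, 12428 counts) had a KO value of 0.24. Its coefficient of variation was 8.94% in WT and 10.55% in KO of batch 1, below the members' medians of 12.1% and 15.2%. miR-7242-3p (63.6%, 6781 counts) had a KO value of 0.42, and its coefficient of variation was 25.07% in WT and 25.04% in KO, above those medians. The parts of GC content and of level in these differences were not tested.

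The hairpin of miR-468 is a neighbour of miR-7232 on the same strand of chromosome 6 and lies outside the range by number. It had 2072 ± 328 CPM of its 5p arm in WT and 2105 ± 323 in KO (SD, n = 5 each), a log2 fold change of 0.02 (SE 0.13) that was not called. Its 3p arm had 0.18 (SE 0.11), not called. In KI miR-468-3p was lower (-0.22, SE 0.09, edgeR adjusted p 0.0852) and miR-468-5p was not called (0.10, SE 0.06).

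Library totals ran from 559957 to 3239357 counts, and between 590 and 745 names had a count in a library. No 2 libraries of a group agreed within sampling noise. The markers of RS and meiotic germ cells (miR-34c-5p, miR-34b-5p and miR-449a-5p) were high in all groups, at a summed 213455 to 243360 CPM in WT and 204523 to 240442 in KO of batch 1, and 316738 to 334912 in WT and 310203 to 338082 in KI of batch 2, here scaled by library total only. Of these 3 names, 2 were called lower in KO and 1 in KI. Of 5 blood markers, which include miR-451a and miR-144-3p, 2 were called higher in KO, and their sum was 4276 to 5366 CPM in WT and 4857 to 6807 in KO. In KI 3 were called higher, at 2233 to 2779 CPM in WT and 2952 to 4685 in KI. One of the 5 was at 0 in every library of both batch 2 groups and of WT in batch 1. Of 3 markers of stroma and vessels, 2 were called higher in KO (191 to 461 CPM in WT, 243 to 601 in KO) and 2 in KI (200 to 390 and 200 to 520). Muscle markers were at 9.19 to 31.5 CPM in WT and 14.3 to 164 in KO, with 1 called higher, and those of the gonadal soma at 73.8 to 220 and 50.3 to 146, with 0 called. In batch 2 muscle markers were at 33.9 to 620 CPM in WT and 35.5 to 485 in KI, with 0 called, and 2 gonadal markers were called lower in KI, at 94.6 to 170 and 71.0 to 104. The part of other cells in the members' values was not tested, and fewer cells of a type and less RNA per cell cannot be told apart in bulk libraries.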

How the data were processed

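The deposited table holds counts, as whole reads per mature miRNA name and library. Per the file headers, the labels and the methods, the authors trimmed adapters with cutadapt 3.4, aligned reads to GRCm38 with Bowtie2 2.4.2 in local mode with many alignments allowed per read, and counted them by strand with featureCounts of Subread 2.0.1 on a miRBase annotation. Whether the miRBase release that the methods name holds these numbers was not determined. The methods and the labels number the batches in opposite order, and the labels were followed. Local alignment can clip a read, so a count does not require a read of mature length. All libraries were used, and 0 columns were left out. Totals ran from 559957 to 3239357 counts.

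The members, the lists and the comparisons were chosen with earlier results of these data known. KO and KI were each tested against WT of their batch, WT between batches, and the difference of the effects over all 4 groups, by edgeR 4.0.16 (glmQLFTest, R 4.3.3, TMM scaling, filterByExpr) on the whole table, with calls at the study's threshold of 0.1 after Benjamini-Hochberg adjustment. SE is the absolute log2 fold change divided by the root of F. CPM are scaled by TMM within the fit. All members that passed the filter are named, with each library's value where a result turns on it and ranges or fold changes otherwise. The fit was tested on simulated data. Alternatives were DESeq2 1.42.0 (the study's tool), other scalings, no filter, a replicate block and leaving out each library. Sequences and folds came from RefSeq (1675 of 1966 names matched; 52 of 64 members used) and RNAfold 2.7.2, and host genes from GENCODE vM21. Sequences of some members are not reported here. A check of GC content over the other names is incomplete, as 77.6% of those tested for KO and 79.2% for KI had a sequence. Over these names GC content had a Spearman correlation of 0.18 with the KO value and -0.035 with the KI value. With the coefficient of variation it was 0.24 in WT and 0.17 in KO of batch 1, and 0.21 in WT and 0.26 in KI of batch 2.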

Additional observations from a re-analysis of the deposited data

Results flagged for a closer look

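Of 128 combinations of a member and a group that were examined for a library far from the others, 6 stood out by Dixon's test, where about 1 in 20, or 6.4, would be flagged by chance. That number takes the combinations as independent, and members vary together within libraries. In 4 of the 6 the library was KO replicate 3. It held 3694 CPM of miR-7222-5p, where the other KO libraries held 2899 to 3018, and 3887 CPM of miR-7230-3p, where they held 2201 to 2651. For miR-7232-5p it held 2918 CPM against 1994 to 2228, and for miR-7232-3p 2175 CPM against 1806 to 1908. WT replicate 1 of batch 2 was low for miR-7215-5p, at 41.3 CPM against 51.5 to 55.4. KI replicate 1 was high for miR-7216-3p, at 863 CPM against 711 to 767, and that name, the single one called higher in KI, was no longer called without WT replicate 1, 3, 4 or 5 or without KI replicate 4.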

How the results depend on the processing

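The count of members called for KO stayed within 1.5 times of 20 under every alternative run, all higher: 21 with RLE size factors, 25 with library size only, 15 without the filter and 23 with DESeq2. Leaving out a library gave 15 to 24. For KI the counts were 3 with RLE size factors, 5 with library size only, 2 without the filter, 3 with DESeq2 and 1 to 8 without a library. For WT between batches library size only gave 12 and leaving out a library 13 to 21, and miR-7232-5p reversed to -0.0259 with library size only. The difference of the effects had 0 called members with the other scalings, without the filter and with DESeq2, and 0 to 12 without a library, the 12 without KI replicate 2. Over all names, library size only moved the calls from 71 higher and 69 lower to 101 and 44 for KO, from 70 and 77 to 96 and 53 for KI, and from 103 and 114 to 47 and 193 for WT between batches. For KO, all names gave 73 higher and 62 lower with RLE size factors, 62 and 68 without the filter and 77 and 60 with DESeq2. For KI the numbers were 77 and 76, 63 and 60, and 76 and 74 in the same order. Leaving out a library gave 33.3 to 45.0% of all names called for KO and 32.6 to 44.6% for KI. The labels do not say what a shared replicate number means, and not every same-numbered pair deviated together, so the numbers were not taken as a pairing. Same-numbered libraries had a mean correlation of deviations of 0.04 over 5 pairs for KO (2 above 0.1, 2 correlating best with their own number) and 0.20 over 6 pairs for KI (3 and 3). With the replicate block 20 members were called for KO, 19 of them shared with the fit without it, 5 for KI, all lower and without miR-7216-3p, and 12 for the difference of the effects, where 21 names were called higher and 4 lower in all. Over all names the block gave 63 higher and 61 lower for KO, and 73 and 92 for KI. With counts divided by the number of loci the members' share became 6.30% in WT and 8.43% in KO of batch 1, and 5.78% in WT and 6.09% in KI of batch 2, and leaving out a library gave 4.58 to 4.76%, 5.88 to 6.53%, 4.37 to 4.55% and 4.496 to 4.85% in the same order. Each member had a single locus, so the division by loci left the members' counts as they were and lowered only counts of other names. The cause of the other changes was not tested. Depth limits the low names, whose largest count in a library was 5.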
